A study of Mus musculus with 3 samples.

Results

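The 45 genes described here encode the machinery that opens replication origins, unwinds the DNA at the fork and copies it, and they were taken as a fixed list of gene symbols: the origin recognition complex, the factors that load the MCM helicase, the helicase and its activators, the replicative polymerases with primase, the sliding clamp with its loader, the single-strand binding protein and the enzymes that finish the new strands. Of these, 44 were measured among the 17742 named genes of the array. Pcna, the sliding clamp, is not analysed here because none of the named probes carried its symbol. Where a gene had several probes, the one that was brightest on average represented it. Of the 44 genes, 41 had 1 probe and 3 had several.

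The study compared mouse myeloid leukaemia cells that differ in sensitivity to cytarabine (Ara-C). Cytarabine is a cytidine analogue that is incorporated into DNA by the replicative polymerases and slows chain extension. The sensitive group was the line B117P, from bone marrow of the BXH-2 strain, with 2 arrays, and the resistant group was B117HS, with 1 array. B117HS was obtained from B117P in about 10 weeks of culture with rising drug concentrations, and its IC50 (a measure of the concentration needed to inhibit the cells) was about 10 times that of the parent line. Both lines therefore share strain, tissue and origin, and differ by the selection. B117HS is 1 derived line. The labels read here do not say whether it is 1 clone or whether the drug was in the medium at harvest.

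Replication starts when the origin recognition complex, with Cdc6 and Cdt1, loads the ring of MCM proteins onto DNA in G1. In S phase the kinase Cdc7 with its partner Dbf4, and then Mcm10, Cdc45 and the GINS complex, turn the ring into an active helicase. Primase lays down short RNA primers that polymerase alpha extends, after which polymerase epsilon copies the leading strand and polymerase delta the lagging strand. Many of these genes are transcribed from promoters bound by E2F factors, which the Rb family holds back outside the cell cycle. RNA from a bulk culture holds both effects together: fewer cells in S phase and less RNA per cell cannot be told apart here.

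Array values were deposited as background-subtracted brightness in linear units, and differences were taken on the log2(intensity + 50) scale as resistant minus the mean of the sensitive arrays. A gene was called when limma gave a Benjamini-Hochberg adjusted p below 0.05 over all genes and the resistant array lay at least 1 log2 unit away from each sensitive array in the same direction. The resistant array was dimmer as a whole. The sensitive arrays had median probe intensities of 58.4 and 72.5 units, the resistant array 24.9, and probes with a mean of at least 500 units were 1.71-fold dimmer on the resistant array, a median log2 shift of -0.77. Every difference was therefore also computed after scaling each array on those bright probes, and "fell" or "rose" is used only for genes called on both scales. Of all genes, 18.5% were called lower and 5.23% higher as deposited, against 8.45% and 9.86% after scaling. Higher calls made up 22.03% of the calls as deposited and 53.8% after scaling. No source used here says that the sensitive arrays were separate cultures, so the p-values measure the spread between these arrays, and the single resistant array was assumed to vary as they do.

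Markers of other cells were checked beside the labels. The 9 measured leukocyte and myeloid markers summed to 100611 and 108005 units in the sensitive line and to 106953 in the resistant one, with Mpo, the myeloperoxidase of granulocyte precursors, at 76710, 84138 and 80905 units. Of these 9 markers 4 were called lower as deposited (Spi1, Cd34, Itgam and Csf3r), of which Spi1 and Cd34 fell on both scales. Fcgr3 rose from 123 and 220.3 to 13474 units. Cebpa, at 368, 582 and 961 units, lay above both sensitive arrays. Its deposited log2 difference of 0.98 gave no call and the scaled one of 1.72 a higher call. Without Mpo and Fcgr3 the other 7 summed to 23778 and 23647 units in the sensitive line and to 12574 in the resistant one. The 3 erythroid markers, none called, summed to 93.2, 91.0 and 52.9 units. The 5 T-cell markers, none called, summed to 322, 286 and 115 units. Cd3e was the brightest at 272, 223 and 90.2 units, and Cd3d stayed at or below 5.28 units. The 6 stromal markers summed to 327, 294 and 148 units, with 1 called lower and 1 higher on both scales. Pdgfrb fell from 261 and 203 to 23.3 units and Pdgfra rose from 2.48 and 3.96 to 112. Col1a2 stayed at or below 4.97 units. The 5 B-cell markers summed to 2254 and 2318 units in the sensitive line and to 283 in the resistant one. Of these, 3 were called lower as deposited and 2 on both scales. Cd79b fell from 970 and 1049 to 21.8 units and Cd22 from 959 and 934 to 132, while Ms4a1 stayed at or below 7.78 units. The part of these markers in the differences below was not tested.

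The replication genes were bright and, as deposited, mostly lower on the resistant array. Of the 44, 40 had a mean of at least 500 units, and 41 of 44 lay below both sensitive arrays as deposited (93.2%, against 71.6% of all genes of at least 500 units). As deposited Orc3 and Orc5 lay above both, and Dbf4 lay between them. After scaling 29 of 44 lay below both (65.9%, against 45.5% of genes of at least 500 units) and 11 above both. As deposited, 20 of 44 were called lower (45.5%), against 18.5% of all genes and 35.2% of genes of at least 500 units. After scaling on bright probes 4 of 44 were called lower (9.09%), against 8.45% of all genes and 13.5% of genes of at least 500 units, so that the share of calls was then near the background. The 4 were Prim1, Prim2, Pold1 and Pole: both primase subunits and the catalytic subunits of polymerases delta and epsilon. They were also the 4 called lower on both scales, where the background was 8.35% of all genes and 13.5% of genes of at least 500 units. None of the 44 was called higher on either scale. Of all genes, 5.23% were called higher as deposited, 9.86% after scaling and 5.21% on both scales. Of genes of at least 500 units the shares were 8.86%, 17.6% and 8.82%. At an unadjusted p under 0.05, 0 of 44 were higher as deposited and 3 (Orc3, Orc5 and Fen1) after scaling. Of these 3, Orc5 also passed the limma threshold after scaling (adjusted p = 0.0301) and missed a higher call only on the size asked for.

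The median log2 difference of the 44 genes was -1.06 (quartiles -1.44 and -0.69), beside -0.33 over all genes and -0.74 over genes of at least 500 units. After scaling it was -0.35 (quartiles -0.72 and 0.06), beside -0.06 over all genes and 0.00 over genes of at least 500 units. The 2 sensitive arrays differed by a median of 0.15 log2 units over the replication genes, and by at most 0.68 (Rpa3) once Dbf4 was set aside. Among genes of at least 500 units, the distance from genes of like brightness was largest in the brightest range: the 8 replication genes of at least 5000 units had a median of -1.07 as deposited and -0.31 after scaling, beside -0.52 and 0.25 for the 694 genes of that brightness. Between 500 and 1000 units the 9 replication genes had a median of -0.94, beside -0.76 for all genes in that range. These medians are descriptions, since the list was chosen with results of these arrays known.

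**Figure D1:**
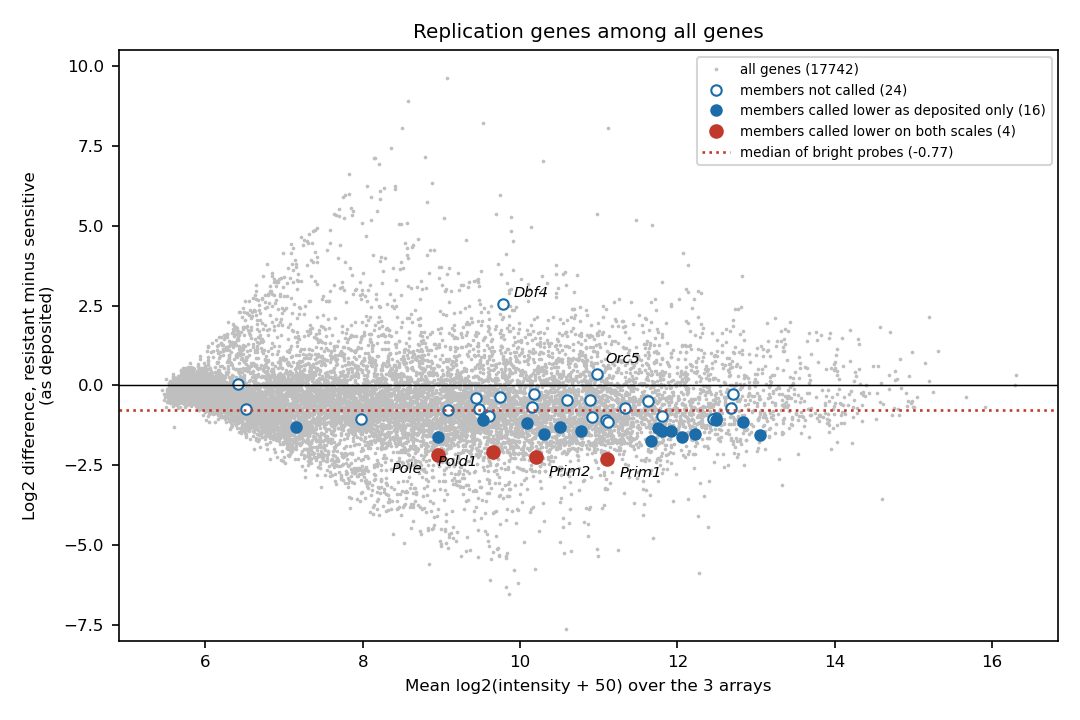
Log2 difference of the resistant array from the sensitive mean (vertical axis, as deposited) against mean log2(intensity + 50) over the 3 arrays (horizontal axis); each grey point is 1 of 17742 genes and each large point 1 of 44 replication genes. The dotted line marks the bright-probe median of -0.77. The 4 red points (Prim1, Prim2, Pold1 and Pole) are the genes called lower on both scales, the 16 filled blue points lost their lower call on scaling, and the 24 open points were not called.

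Promoters were compared because many S-phase genes share E2F sites. RefSeq windows of 300 bases (250 before and 50 after the transcription start, build GRCm38.p6) were at hand for 36 of the 44 genes, and 7 of these had several windows. The windows of Gmnn, Mcm4, Gins1, Gins2, Gins4, Prim2, Pole and Rfc2 were not analysed here. An E2F match was any of TTTGGCGC, TTTGCCGC, TTTCCCGC and TTTCGCGC on either strand, with overlapping matches counted. At least 1 window with a match was found for 15 of 36 replication genes (41.7%), against 3.64% of the 13980 array genes with a window, 4.68% of the 9130 array genes whose window had at least 55% G+C, and 2.27% of all 32851 windows. The CCAAT pentamer on either strand was in windows of 55.6% of the replication genes, 41.7% of the array genes and 37.4% of all windows. The GC box GGGCGG was in 75% of the replication genes, 55.8% of the array genes and 35.7% of all windows, and in 75.1% of the G+C-rich array genes. The share with E2F letters was thus above that of the array genes, G+C-rich ones included. All 36 replication genes were counted, although only 28 of them had a window of at least 55% G+C. The GC box shares of the replication genes and of the G+C-rich array genes are therefore not on like terms. A match is a description of letters and not a shown binding site.

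The windows of the 5 genes with 2 or more E2F matches follow, with those of Pold1 and Prim1, the genes called lower on both scales for which a window was at hand. Each is written 5′ to 3′ on the strand of the gene, with E2F matches in capitals. They are Mcm3 (chr1:20820263-20820562, minus strand), Mcm5 (chr8:75109259-75109558, plus strand), Mcm6 (chr1:128359656-128359955, minus strand), Mcm7 (chr5:138171834-138172133, minus strand), Rfc3 (chr5:151651159-151651458, minus strand), Pold1 (chr7:44548766-44549065, minus strand) and Prim1 (chr10:128014965-128015264, plus strand).
Mcm3: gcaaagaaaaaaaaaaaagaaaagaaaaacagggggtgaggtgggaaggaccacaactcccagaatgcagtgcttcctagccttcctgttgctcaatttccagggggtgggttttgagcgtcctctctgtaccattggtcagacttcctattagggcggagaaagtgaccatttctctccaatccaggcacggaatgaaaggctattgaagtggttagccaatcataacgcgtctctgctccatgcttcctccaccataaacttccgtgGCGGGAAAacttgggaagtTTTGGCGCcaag
Mcm5: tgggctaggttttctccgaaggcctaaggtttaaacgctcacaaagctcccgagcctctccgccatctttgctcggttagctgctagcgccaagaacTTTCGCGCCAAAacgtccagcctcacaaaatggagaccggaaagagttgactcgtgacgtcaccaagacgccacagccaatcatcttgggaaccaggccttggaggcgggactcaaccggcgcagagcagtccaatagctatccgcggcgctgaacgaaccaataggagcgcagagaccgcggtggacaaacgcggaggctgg
Mcm6: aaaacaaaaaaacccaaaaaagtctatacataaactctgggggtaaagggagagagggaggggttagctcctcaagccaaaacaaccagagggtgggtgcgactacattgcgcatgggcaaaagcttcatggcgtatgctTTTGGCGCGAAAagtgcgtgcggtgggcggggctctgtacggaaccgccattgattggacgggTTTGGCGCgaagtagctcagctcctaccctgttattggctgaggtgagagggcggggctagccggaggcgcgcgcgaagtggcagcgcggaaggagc
Mcm7: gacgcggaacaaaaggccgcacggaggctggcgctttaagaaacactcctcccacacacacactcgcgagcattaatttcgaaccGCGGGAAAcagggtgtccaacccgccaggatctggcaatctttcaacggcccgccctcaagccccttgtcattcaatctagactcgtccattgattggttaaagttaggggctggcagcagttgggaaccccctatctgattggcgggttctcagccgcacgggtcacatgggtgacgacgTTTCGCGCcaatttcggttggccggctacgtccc
Rfc3: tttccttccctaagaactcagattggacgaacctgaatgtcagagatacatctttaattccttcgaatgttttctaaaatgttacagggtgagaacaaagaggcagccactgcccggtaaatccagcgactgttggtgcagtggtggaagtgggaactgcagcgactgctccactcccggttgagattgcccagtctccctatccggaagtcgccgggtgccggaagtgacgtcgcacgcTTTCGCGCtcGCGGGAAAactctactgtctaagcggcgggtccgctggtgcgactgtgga
Pold1: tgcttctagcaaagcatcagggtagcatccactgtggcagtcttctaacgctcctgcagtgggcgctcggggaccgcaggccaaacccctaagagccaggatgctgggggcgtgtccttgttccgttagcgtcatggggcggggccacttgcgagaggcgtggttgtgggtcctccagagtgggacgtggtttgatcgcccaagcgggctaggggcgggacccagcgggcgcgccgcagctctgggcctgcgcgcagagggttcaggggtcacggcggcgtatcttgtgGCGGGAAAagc
Prim1: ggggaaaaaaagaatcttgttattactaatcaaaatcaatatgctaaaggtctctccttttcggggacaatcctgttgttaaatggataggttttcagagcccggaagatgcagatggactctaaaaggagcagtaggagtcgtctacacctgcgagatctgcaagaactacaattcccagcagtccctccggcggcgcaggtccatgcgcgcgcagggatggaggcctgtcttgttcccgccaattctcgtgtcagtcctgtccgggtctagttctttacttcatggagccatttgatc

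Matches in Mcm3 began at positions +20 and +39 from the start, and those in Mcm5 at -153 and -149, where the 2 overlap. Mcm6 held 3 matches, at -110, -106 and -47, of which the first 2 overlap. Mcm7 had 1 match upstream at -165 and 1 at +17, and Rfc3 had both at the start itself, at -10 and +1. Pold1 had 1 match at +40 and Prim1 had none of the 4 spellings. The 15 genes with a match had a median log2 difference of -1.08 (8 called lower) and the 21 without one of -0.98 (8 called lower), and after scaling -0.40 and -0.23. Mcm6, with 3 matches, and Prim1, with none, were at opposite ends of the differences among the 7 printed genes. Prim1 was printed for its lower calls, so its place there follows from that choice and says nothing about E2F matches.

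Primase and polymerase alpha start every new strand, and as deposited the 2 primase genes had the most negative differences of the list, while after scaling Pole (-1.57) was lowest beside Prim1 (-1.56) and Prim2 (-1.54). Prim1, the catalytic primase subunit, measured 3574 and 3817 units in the sensitive cells, against 716 in the resistant cells. The resistant value was 19.4% of the sensitive mean of 3696 ± 172 (SD, n = 2), far outside the range of the sensitive arrays. The log2 difference was -2.29 (SE 0.20, limma adjusted p = 3.38e-06) as deposited and -1.56 (SE 0.15, adjusted p = 0.0126) after scaling. Prim2, the regulatory primase subunit, measured 2123, 1766 and 370.2 units, the resistant array at 19.04% of a sensitive mean of 1945 ± 253 (SD, n = 2). Its log2 difference was -2.24 (SE 0.22, adjusted p = 8.89e-06) and -1.54 (SE 0.22, adjusted p = 0.0226) after scaling. Both primase genes fell.

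Pola2, the accessory subunit that tethers polymerase alpha to primase, measured 4587 and 5091 units against 1397, a log2 difference of -1.75 (SE 0.20, adjusted p = 2.6e-05). After scaling it stood at -0.97 from sensitive replicate 1 and -1.04 from replicate 2 (adjusted p = 0.0240), just short of the size asked for, and was called lower as deposited only. Pola1, the catalytic polymerase subunit, was dim at 287, 257 and 106 units. Its difference of -1.05 (adjusted p = 0.0104) was not called because the resistant array lay 0.98 below sensitive replicate 2. Each log2 ratio of 2 genes, here and below, is the within-array difference of their log2 values with the offset added. It is not the ratio of the printed units, because the offset shrinks differences of dim genes such as Pola1. The log2 ratio of Prim1 to Pola1 differed on the resistant array by -1.13 and -1.36 from the 2 sensitive arrays as deposited. After scaling it differed by -0.97 and -1.19. That of Prim2 to Pola1 differed by -1.26 and -1.13 as deposited, and by -1.13 and -0.99 after scaling. These pairs and the other within-array pairs below were chosen after their values were seen and have no test.

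In polymerases delta and epsilon the catalytic subunit was called lower on both scales and the accessory subunits were not. Pold1, which carries the polymerase and proofreading activities of delta, measured 1426 and 1105 units against 261, or 20.6% of a sensitive mean of 1266 ± 227 (SD, n = 2). Its log2 difference was -2.07 (SE 0.24, adjusted p = 3.03e-05) as deposited and -1.40 (SE 0.25, adjusted p = 0.0340) after scaling. Pold2 and Pold3, accessory subunits of the same enzyme, were not called. Pold3, the brightest of the delta genes, measured 2137, 1989 and 1493 units (-0.45, adjusted p = 0.0888), and Pold2 measured 1606, 1746 and 1212 units (-0.45, adjusted p = 0.0952). After scaling both stood at 0.30 above the sensitive mean, not called. The log2 ratio of Pold1 to Pold2 differed by -1.85 and -1.38 from the 2 sensitive arrays, and that of Pold1 to Pold3 by -1.74 and -1.49.

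Pole, the catalytic subunit of the leading-strand polymerase, measured 841 and 698 units against 132, or 17.2% of a sensitive mean of 769 ± 101 (SD, n = 2). Its log2 difference was -2.16 (SE 0.25, adjusted p = 3.12e-05) and -1.57 (SE 0.23, adjusted p = 0.0241) after scaling, so that Pole, like Pold1, fell. Pole2, the subunit that binds the catalytic chain, measured 1514, 1249 and 577 units. It was called lower as deposited only (-1.18, SE 0.23, adjusted p = 0.00112; -0.46 after scaling). Pole3, a small histone-fold subunit and on average the brightest of the 3, measured 1003, 1388 and 968 units (-0.27, adjusted p = 0.376), with a resistant value just below the lower sensitive array. The log2 ratio of Pole to Pole3 differed by -2.24 and -1.54 from the 2 sensitive arrays, and that of Pole to Pole2 by -0.97 and -0.99. The calls of Pole and Pold1 were lost under quantile normalization (adjusted p = 0.0503 and 0.0634), whereas those of Prim1 and Prim2 were kept. Pola2, Mcm7, Rfc2 and Rpa1, not called after bright-probe scaling, also kept their lower calls under quantile normalization. With a floor of 50 units in place of the offset none of Prim1, Prim2, Pole and Pold1 passed (adjusted p of 0.0624, 0.0773, 0.0791 and 0.0937). Even so, 32 of the 44 genes were lower at an unadjusted p under 0.05 with that floor. Over all alternatives with a test, the lowest adjusted p was 8e-08 for Prim1, 7.17e-07 for Prim2, 2.23e-06 for Pole and 1.11e-05 for Pold1, and the floor gave the highest of each.

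**Figure D2:**
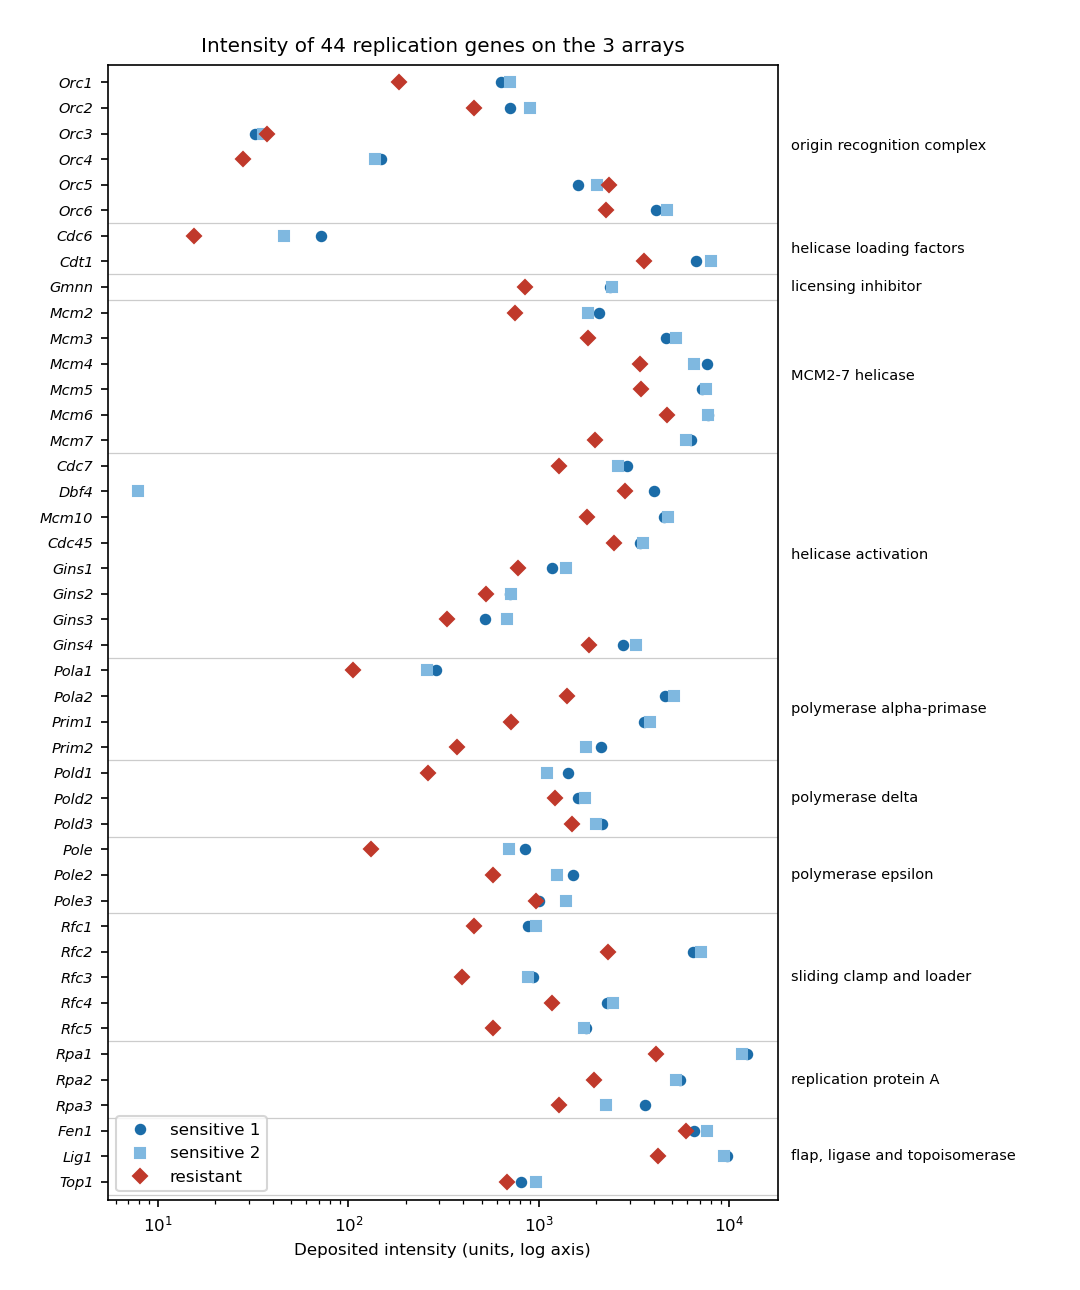
Deposited intensity of the 44 replication genes (log axis, units) on each of the 3 arrays, grouped by role, 1 point per array. Prim1 drops from 3574 and 3817 units to 716 and Pole from 841 and 698 to 132, while Fen1 keeps 5894 units beside 6505 and 7642; Dbf4 has 1 sensitive array at 7.91 units.

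The origin recognition complex, which marks origins, split among its 6 subunits. Orc1, the subunit whose level follows the cell cycle, measured 635 and 706 units against 185, a log2 difference of -1.61 (SE 0.25, adjusted p = 0.000245). It was called lower as deposited only, with -0.98 (adjusted p = 0.0351) after scaling. Orc4, an ATPase subunit, was dim at 148, 138 and 28.0 units, with -1.31 (SE 0.28, adjusted p = 0.00249) as deposited and -0.98 (adjusted p = 0.0416) after scaling. Orc6, the brightest of the 6, measured 4115, 4727 and 2259 units and was not called (-0.95, adjusted p = 0.00234; -0.19 after scaling).

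Orc5 went the other way. It measured 1598 and 2027 units in the sensitive cells and 2344 units, above both, in the resistant cells, with a log2 difference of 0.37 (SE 0.22, adjusted p = 0.183) that was not called. After scaling the difference was 1.13 (adjusted p = 0.0301), at 1.26 from sensitive replicate 1 and just under 1 from replicate 2, again no call. The log2 ratio of Orc1 to Orc5 differed by -2.08 and -1.89 from the 2 sensitive arrays. Orc3 was dim on all arrays (32.3, 35.6 and 37.3 units). Orc2 had probes that differed: the brighter read 708, 897 and 457 units (-0.74, not called), and the other read 371, 402 and 156 units. The other probe's difference of -1.09 passed the size asked for as deposited. After scaling neither Orc2 probe passed it (-0.03 and -0.47).

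Of the 2 factors that bring MCM rings to origins, Cdt1 measured 6662, 7959 and 3540 units (-1.03, adjusted p = 0.00147). It was not called because the resistant array lay 0.90 below sensitive replicate 1. Cdc6, the ATPase that works with Cdt1, was dim at 72.1, 46.2 and 15.6 units (-0.72, adjusted p = 0.0235). Gmnn, geminin, which inhibits Cdt1 outside G1, was even between the sensitive arrays at 2372 and 2411 units, against 849 on the resistant one. Its difference of -1.44 (SE 0.21, adjusted p = 0.000136) was called lower as deposited only and stood at -0.70 after scaling.

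The 6 subunits of the MCM ring were all bright and all below both sensitive arrays, with 4 of 6 called lower as deposited and none after scaling (medians -1.20 and -0.45). Mcm7, whose promoter window is printed above, measured 6277 and 5936 units against 1982 (-1.60, SE 0.20, adjusted p = 4.46e-05). After scaling it stood at -0.84 (adjusted p = 0.0355), the lowest of the ring. Mcm3 measured 4628, 5254 and 1812 units (-1.42, SE 0.20, adjusted p = 0.000133). Mcm2 measured 2056, 1811 and 747 units (-1.31, SE 0.21, adjusted p = 0.000361). Mcm3 and Mcm2 stood at -0.66 and -0.58 after scaling. Mcm5 measured 7202, 7491 and 3438 units (-1.08, SE 0.20, adjusted p = 0.000746).

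Mcm4 and Mcm6 were not called. Mcm4 measured 7642, 6550 and 3380 units (-1.05, adjusted p = 0.00115), 0.94 below sensitive replicate 2. Mcm6, the brightest of the ring, measured 7676 and 7710 units against 4682 (-0.71, SE 0.20, adjusted p = 0.0103), and it was at 0.05 after scaling. The subunits, which act as 1 ring in equal numbers, thus spanned from -1.60 to -0.71 in RNA difference, and the log2 ratio of Mcm7 to Mcm6 differed by -0.93 and -0.85 from the 2 sensitive arrays.

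The 8 activators of the helicase held 1 call as deposited and none after scaling, with medians of -0.68 and 0.06. Mcm10, which helps to switch the loaded ring on, measured 4555 and 4743 units against 1797 (-1.35, SE 0.20, adjusted p = 0.000168; -0.59 after scaling) and was called lower as deposited only. It was also the brightest of the activators. Cdc45, a part of the active helicase, measured 3391, 3538 and 2481 units (-0.47, adjusted p = 0.0678; 0.29 after scaling). The GINS subunits Gins1 to Gins4, parts of the same helicase, ran from -0.76 (Gins3) to -0.39 (Gins2) as deposited and from -0.07 to 0.33 after scaling, with no call. A second, dimmer probe of Gins3 read 221, 165 and 49.8 units, where the chosen probe read 521, 677 and 331 units. The dimmer probe's difference of -1.27 passed the size asked for as deposited, but not after scaling (-0.84). The log2 ratio of Mcm7 to Cdc45 differed by -1.20 and -1.06 from the 2 sensitive arrays.

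Cdc7, the kinase that triggers firing, measured 2910, 2609 and 1282 units (-1.07, adjusted p = 0.00112) and lay just short of 1 log2 unit below sensitive replicate 2, so it was not called. Its activating subunit Dbf4 gave values that differed most between the sensitive arrays. It measured 4030 units on sensitive replicate 1, 7.91 on sensitive replicate 2 and 2831 on the resistant array. The difference was -0.50 from the first and 5.64 from the second, and the fitted value of 2.57 (SE 1.55, adjusted p = 0.192) describes neither. Only 2 genes of the array were at 10 units or less on 1 sensitive array and at 500 or more on the other.

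**Figure D3:**
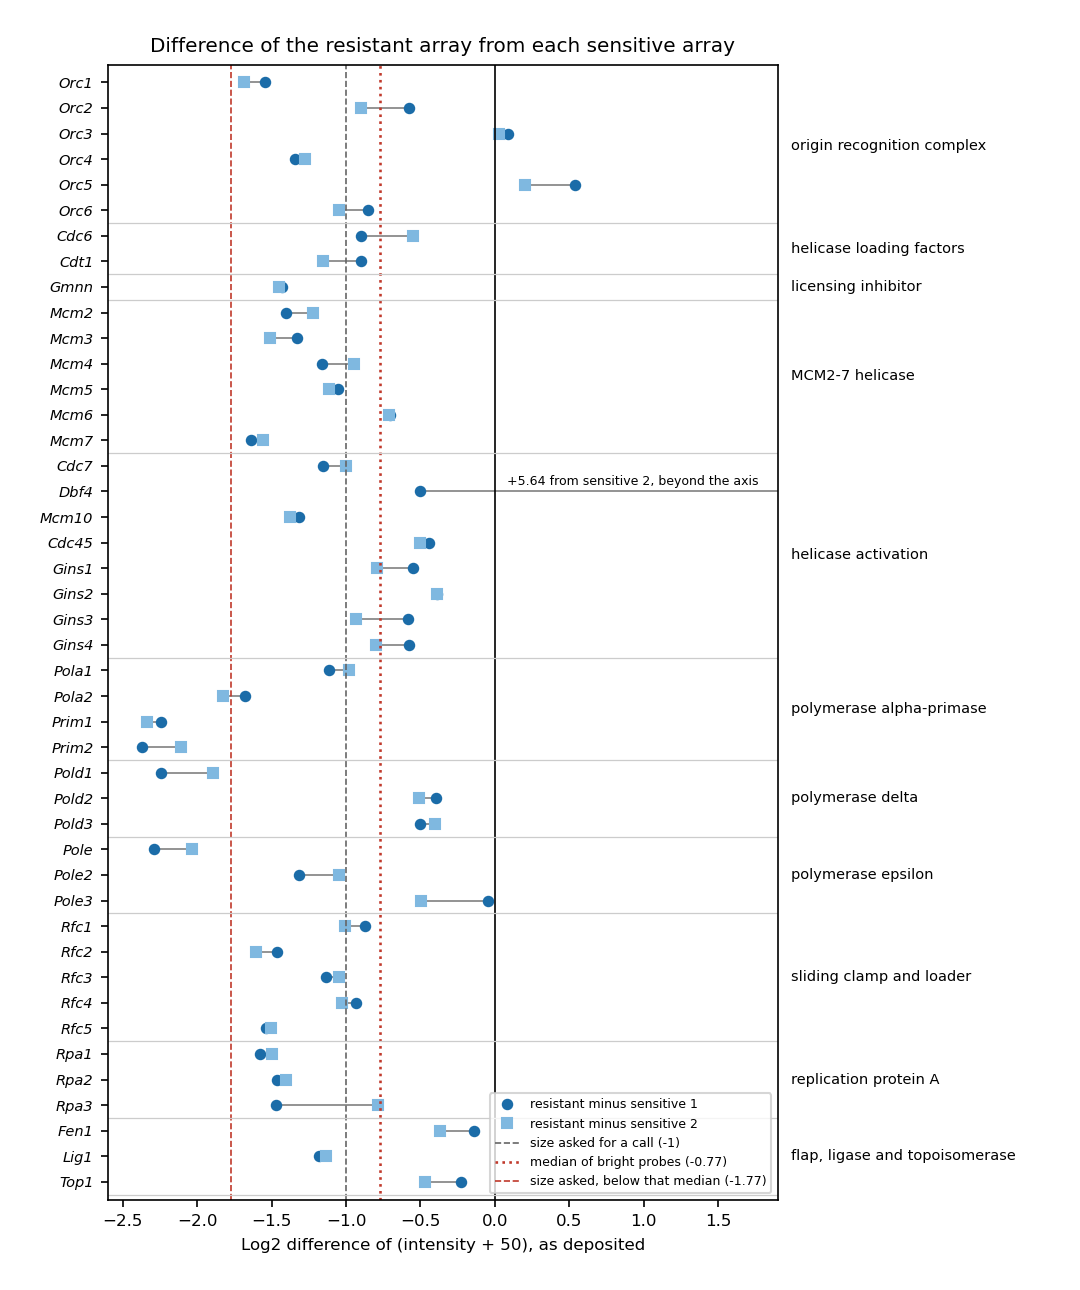
Log2 difference of the resistant array from sensitive replicate 1 (circles) and from sensitive replicate 2 (squares) for each replication gene, as deposited, on the log2(intensity + 50) scale; the dashed grey line marks the size asked for (-1), the dotted red line the bright-probe median (-0.77) and the dashed red line 1 unit below it. Prim1, Prim2, Pold1 and Pole lie left of the dashed red line on both arrays, Orc3 and Orc5 lie right of 0 on both, and Dbf4 runs off the axis at 5.64.

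The clamp loader, the complex that opens the sliding clamp onto primed DNA, had 3 of 5 subunits called lower as deposited and none after scaling. Rfc2, the brightest, measured 6421 and 7083 units against 2294 (-1.53, SE 0.20, adjusted p = 6.45e-05; -0.78 after scaling). Rfc5 measured 1769, 1729 and 577 units (-1.52, SE 0.21, adjusted p = 0.000117; -0.80 after scaling), and Rfc3 measured 929, 873 and 397 units (-1.09, SE 0.23, adjusted p = 0.00216; -0.39 after scaling). Rfc4 (-0.98) and Rfc1, the large subunit (-0.94), were not called, and both stood at -0.23 after scaling. The 5 loader genes thus lay below both sensitive arrays on both scales, but none was called on both. After scaling, Rfc2 and Rfc5 passed the limma threshold and missed only the size asked for.

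Replication protein A, which coats single-stranded DNA at the fork, gave the brightest gene of the list. Rpa1 measured 12389 and 11680 units against 4110 (-1.54, SE 0.20, adjusted p = 5.86e-05; -0.77 after scaling). Rpa2 measured 5483, 5252 and 1952 units (-1.44, SE 0.20, adjusted p = 0.000101; -0.68 after scaling). Both were called lower as deposited only. Rpa3, the smallest subunit, measured 3623, 2237 and 1274 units, so that its sensitive arrays were themselves 0.68 log2 units apart, and its difference of -1.13 (adjusted p = 0.00411) was not called.

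The enzymes that finish strands or relieve torsion held 1 call of 3 as deposited and none after scaling, with medians of -0.35 and 0.38. Fen1, the flap nuclease of Okazaki fragments, measured 6505 and 7642 units against 5894 (-0.26, adjusted p = 0.320; 0.51 after scaling), and its resistant value was 83.3% of the sensitive mean. Top1, topoisomerase I, measured 806, 966 and 683 units (-0.35, adjusted p = 0.237; 0.38 after scaling). Lig1, the ligase that joins Okazaki fragments, was called lower as deposited only, with 9686 and 9370.3 units against 4237 (-1.16, SE 0.20, adjusted p = 0.000461; -0.40 after scaling).

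Replication and S-phase genes outside the list were counted in 4 lists of 65 genes, of which 57 were measured. As deposited 23 were called lower and 2 higher, beside 18.5% lower and 5.23% higher of all genes. Of genes of at least 500 units 35.2% were called lower as deposited. On both scales 6 were called lower and 2 higher, beside the array's 8.35% lower and 5.21% higher. The 57 genes had a median log2 difference of -0.76, and -0.04 after scaling.

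Among the firing, fork and accessory factors 12 of 23 were called lower as deposited, but only Clspn fell on both scales. Clspn, claspin, which passes the replication checkpoint signal to Chk1, measured 3148 and 3137 units against 709 (-2.07, SE 0.20, adjusted p = 7.82e-06; -1.34 after scaling). Tipin, a fork protection protein, measured 4094, 2923 and 880.4 units (-1.92; -1.18 after scaling, adjusted p = 0.0600), and was called lower as deposited only. The fork protein Wdhd1 (-1.53) and the loader subunit Chtf18 (-1.51) were called likewise. Dscc1, another subunit of that alternative loader, rose from near 0 (7.45 and 9.23 units) to 82.4 units. Dna2, a nuclease of Okazaki fragments and DNA ends, measured 1508, 1578 and 3204 units. The deposited difference of 1.03 gave no call and the scaled one of 1.79 a higher call (adjusted p = 0.0106). Pold4, the small subunit of polymerase delta, was not called (-0.65).

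Of the 6 measured genes that assemble chromatin behind the fork, 4 were called lower as deposited and 2 fell on both scales: the large and middle subunits of chromatin assembly factor 1. Chaf1a measured 1768 and 1814 units against 482 (-1.79, adjusted p = 3.44e-05; -1.08 after scaling). Chaf1b measured 1059 and 1037 units against 230.2 (-1.97, adjusted p = 3.09e-05; -1.31 after scaling). Nasp (-1.38) and Uhrf1 (-1.24), a histone chaperone and the factor that recruits maintenance methylation, were called lower as deposited only. A second probe of Nasp read 11421 and 11884 units against 32.7 (-7.15; -6.79 after scaling). Unlike the chosen Nasp probe, it passed the size asked for on both scales. The histone chaperones Asf1a (0.21) and Asf1b (0.42) were not called.

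Among 13 cyclin, kinase and ubiquitin genes of S-phase control, 3 were called lower as deposited and 2 fell on both scales. Cul4b, a ubiquitin ligase scaffold, measured 617 and 598 units against 129 (-1.88; -1.28 after scaling), although its other probe, at -1.05, did not pass the size asked for. Cdkn1b, the kinase inhibitor p27, measured 237, 174 and 26.4 units (-1.73; -1.42 after scaling). Dtl, the adaptor that marks Cdt1 for destruction, was called lower as deposited only (-1.15). Cdkn1a, the kinase inhibitor p21, measured 914, 1455 and 2938 units. The deposited difference of 1.31 gave no call and the scaled one of 2.07 a higher call (adjusted p = 0.0240). Ccna2, cyclin A2, measured 2275, 2481 and 2873 units, with 0.27 as deposited and a higher call at 1.03 after scaling.

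Among 15 measured genes of E2F and Rb control, 4 were called lower and 1 higher as deposited, and 1 each on both scales. E2f2, an activating E2F factor, measured 609 and 768 units against 107 (-2.22, SE 0.27, adjusted p = 3.41e-05; -1.65 after scaling) and fell. E2f1, the other main activator, measured 1548 and 1512 units against 473 and was called lower as deposited only (-1.60; -0.88 after scaling), as were Lin9 (-1.77; -1.07 after scaling), a DREAM complex subunit whose other, dim probe at -0.85 did not pass the size asked for, and the repressor E2f7 (-1.33). Rbl2, the pocket protein p130, rose from near 0 (-1.24 and 5.28 units) to 296 units. Rbl1, p107, measured 781, 696 and 1445 units, with 0.92 as deposited and a higher call at 1.67 after scaling. E2f3 stayed uncalled at -0.03.

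**Figure D4:**
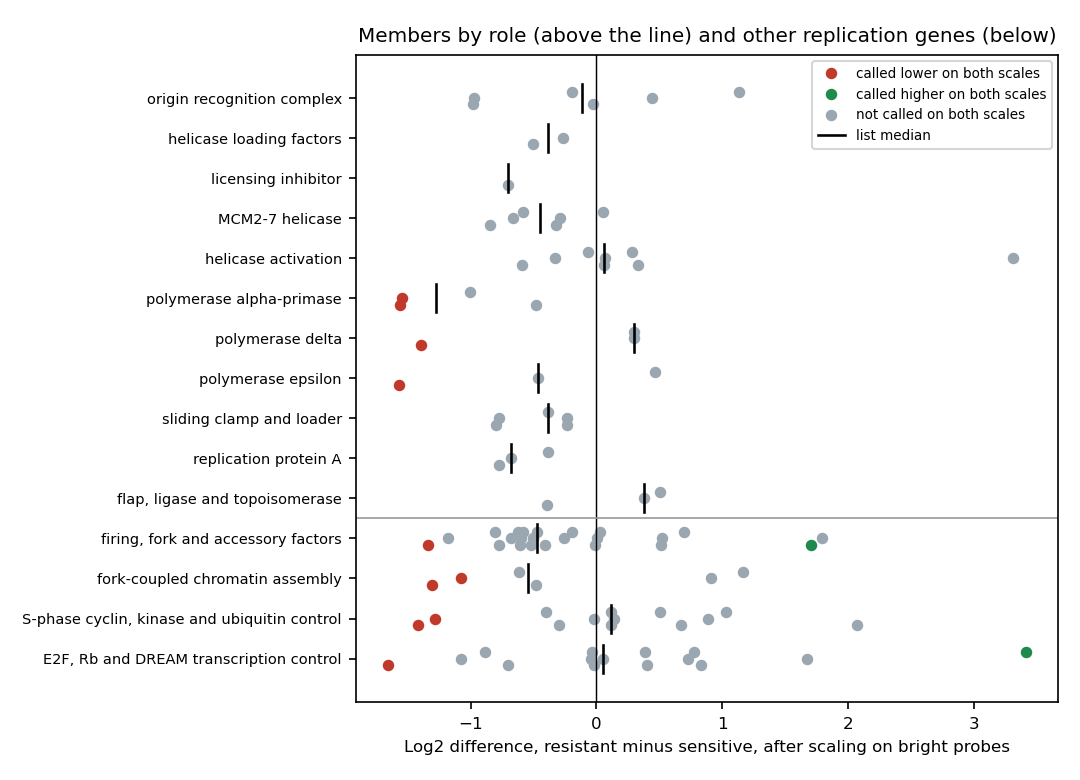
Log2 difference, resistant minus sensitive, after scaling on bright probes, for the replication genes by role (above the line) and for the 57 other genes in 4 lists (below it); each point is 1 gene and each black bar a list median. Polymerase alpha and primase have the lowest median of the roles (-1.27), with Prim1 and Prim2 in red, while the helicase activators (0.06) sit near 0 with Dbf4 alone at 3.31.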

How the data were processed

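Total RNA from 3 samples, B117P (2) and B117HS (1), was amplified and hybridised in 1 colour, per the labels. The authors deposited 1 table of linear intensity for 26423 probes, with values below 0, so that background had been subtracted; for the scanner software and any scaling, nothing is stated (not given in the sources used here), and no background or saturation flags were used. GEO's platform annotation named 20377 probes with 1 symbol and 6046 with none. Older symbols (2126) were updated through RefSeq's GRCm38.p6 gene table, and 38 matched no current gene.

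From the deposited intensity, log2(intensity + 50) was computed, which shrinks differences of dim genes. limma 3.58.1 (R 4.3.3; lmFit, eBayes with a trend) was fitted over all 17742 genes with 1 residual degree of freedom (prior 11.0), and tables were handled in Python 3.11.15. In 20 simulations of 200 changed genes it recovered 92.0% of changes of 1.5 log2 units and 99.7% of those of 2. On average 3 unchanged genes were called. Changed genes were drawn from those above the median sensitive brightness, with normal noise at the fitted spread and no shift between arrays. The simulations therefore give no error rate for these arrays, where the resistant one was dimmer as a whole. The number of arrays limits the precision. Values are given for every replication gene called on either scale and for the brightest of each role. Of the other lists the called genes are given, up to 4 by size, with up to 2 uncalled ones, and of genes with several probes those that disagree. Members and lists were chosen with earlier results of these data known. Alternatives covered scale, offset, probe choice, dim genes, trend, size and each sensitive array left out.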

Additional observations from a re-analysis of the deposited data

How the results depend on the processing

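The scale between arrays moved most counts. On bright-probe scaling, quantile normalization and median centring, replication genes called lower went from 20 to 4, 6 and 5, and their median log2 difference from -1.06 to -0.35, -0.56 and -0.44. Other replication and S-phase genes called lower went from 23 to 6, 7 and 6, and those called higher from 2 to 6, 4 and 5. Over all genes, lower calls went from 3284 to 1500, 1201 and 1273, and higher calls from 928 to 1749, 1334 and 1697. With a floor of 50 units 133 genes were called higher, 26 lower and 0 replication genes lower; 6335 genes then had both sensitive arrays at the floor, and the prior degrees of freedom fell to 0.74. A size of 2 log2 units left 354 higher, 734 lower and 3 replication genes lower, and a size of 0.6 gave 5511 lower. Leaving out each sensitive array in turn, with no test, gave 24 replication genes lower both times and 0 to 1 higher, a median of -1.12 to -1.04, 976 to 1108 genes higher and 3625 to 4288 lower. Quantile normalization kept the lower calls of Prim1, Prim2, Pola2, Mcm7, Rfc2 and Rpa1. Median centring kept those of Prim1, Prim2, Pola2, Pold1 and Pole. Prim1 and Prim2 were called lower in 13 of 14 settings, Pole in 12, Pold1 and Pola2 in 11, and Mcm7, Rfc2 and Rpa1 in 10.

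Signs turned for many, though not all, of the genes whose deposited difference lay between the array's general shift and 0. On bright probes these were Mcm6 (0.054), Cdc45 (0.29), Gins1 (0.063), Gins2 (0.33), Gins4 (0.065), Pold2 (0.30), Pold3 (0.30), Pole3 (0.47), Fen1 (0.51) and Top1 (0.38). Under quantile normalization they were Gins2 (0.22), Pold2 (0.11), Pold3 (0.091), Pole3 (0.31), Fen1 (0.0049) and Top1 (0.25), and after centring Cdc45 (0.15), Gins2 (0.23), Pold2 (0.17), Pold3 (0.17), Pole3 (0.35), Fen1 (0.37) and Top1 (0.27). Dbf4 stood at -0.50 without sensitive replicate 2 and at 5.64 without replicate 1. No paired analysis was possible with 1 resistant array beside 2 sensitive ones. The causes of these shifts were not tested.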
